A study of Mus musculus with 20 samples.

Results

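Late p73-knockout airway cultures were set against an early wild-type stage, 5 of the 20 libraries of the series. The 2 libraries labelled p73-KO day 14 came from tracheal epithelial cells of mice carrying a global knockout of p73, harvested after 14 days at an air-liquid interface. The 3 libraries labelled WT day 4 came from wild-type cells harvested after 4 days of the same culture, and no other treatment is labelled in either group. Libraries were taken by their genotype and day labels alone. Genotype and day differ together between these groups and cannot be told apart in any difference between them. The series text speaks of 3 replicates per genotype, and 2 p73-KO libraries per day were analysed here. The sources used here give neither strain, age and sex of the mice nor which part of the gene was removed. The title of WT day 4 replicate 1 names day 3 while its other labels state day 4, so results were also computed without it. The title of p73-KO day 4 replicate 1, outside the 5 libraries, also names day 3. Below, the library titled day 3 means WT day 4 replicate 1. The question addressed was which genes make late knockout cultures differ from an early stage of normal differentiation.

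In this culture basal stem cells are seeded on a porous membrane, and exposure of their upper face to air lets them form a layer of basal, secretory and multiciliated cells. A cell that becomes multiciliated leaves the cell cycle, multiplies its centrioles on structures called deuterosomes, docks them at the surface as basal bodies and grows a motile axoneme from each. Geminin-family coactivators (Gmnc, Mcidas) start this program, and transcription factors of the Myb, Foxj1 and Rfx groups carry it to the axonemal genes. The transcription factor p73, a relative of p53 and p63, is known to act on genes of this program.

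The 2 p73-KO day 14 libraries held 23.34 and 19.03 M reads, and the 3 WT day 4 libraries 29.87, 20.29 and 3.27 M. WT day 4 replicate 3 was therefore the least precise of the 5. Airway epithelial identity genes were present in both groups. Krt19, a keratin of simple epithelia, had 1537 and 1656 CPM in p73-KO day 14 and 1432, 1606 and 1490 CPM in WT day 4, where CPM is the read count relative to library size after rescaling across days. The defining markers of leukocytes and endothelium were near 0: Ptprc, the pan-leukocyte antigen, had 0.08 and 0.05 CPM in p73-KO day 14 against 0.03, 0 and 0 CPM in WT day 4, and Pecam1 and Cdh5 stayed at 0.30 CPM or less in all 5 libraries. On the first principal component over all 20 libraries, which carried 60.2% of the variance, p73-KO day 14 lay at 25 and 27.9 and WT day 4 at -5.2, 25.5 and 35.1. WT day 4 replicate 1, the library titled day 3, stood apart at the low end, and WT day 14 lay at 58.7 to 71.8. The second component (9.77%) placed p73-KO day 14 at 17.4 and 31.5 and WT day 4 at -21.6, -4.9 and -18.4, with no overlap. This was shared by the other days, since p73-KO libraries of all days lay at 11.4 to 48.2 and WT libraries at -35 to -4.9.

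Of 15738 tested genes, 157 (0.998%) differed between p73-KO day 14 and WT day 4, 81 higher (0.515%) and 76 lower (0.483%) in p73-KO day 14. The 5 largest rises were those of the squamous genes Tgm3 and Krt13, the collagenase Mmp13, the prostaglandin receptor Ptgdr and the oxidase subunit Cybb. The 5 largest falls, without a clone-named gene, were those of Cnn1, Ankrd1, Muc5b, Prnd and Acta2. Genes were called in limma on log2(CPM + 0.5) at a Benjamini-Hochberg false discovery rate (FDR) under 0.05, and differences below are log2 differences ± SE, p73-KO day 14 minus WT day 4, which understate the change of genes with low levels. Called differences were 0.57 to 4.76 in size, and 76 of the higher and 60 of the lower called genes passed 1 on the log2 scale. All 157 called genes had both p73-KO day 14 libraries outside the WT day 4 range, so this trait adds nothing to a call. At an unadjusted p under 0.05, 1768 genes (11.2%) passed. For 68.3% of the tested genes the 95% interval of the difference lay within 1 on the log2 scale, and the median difference over all tested genes was -0.013. The count rested on single libraries: 33 genes were called without p73-KO day 14 replicate 2 and 77 without WT day 4 replicate 3. Without WT day 4 replicate 1, 131 genes (0.832%) were called, 95 of them among the 157. Called genes with no leave-out value beside them kept their call without each of the 5 libraries in turn. In such fits an arm with 1 library was taken to vary like the other groups.

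**Figure D1:**
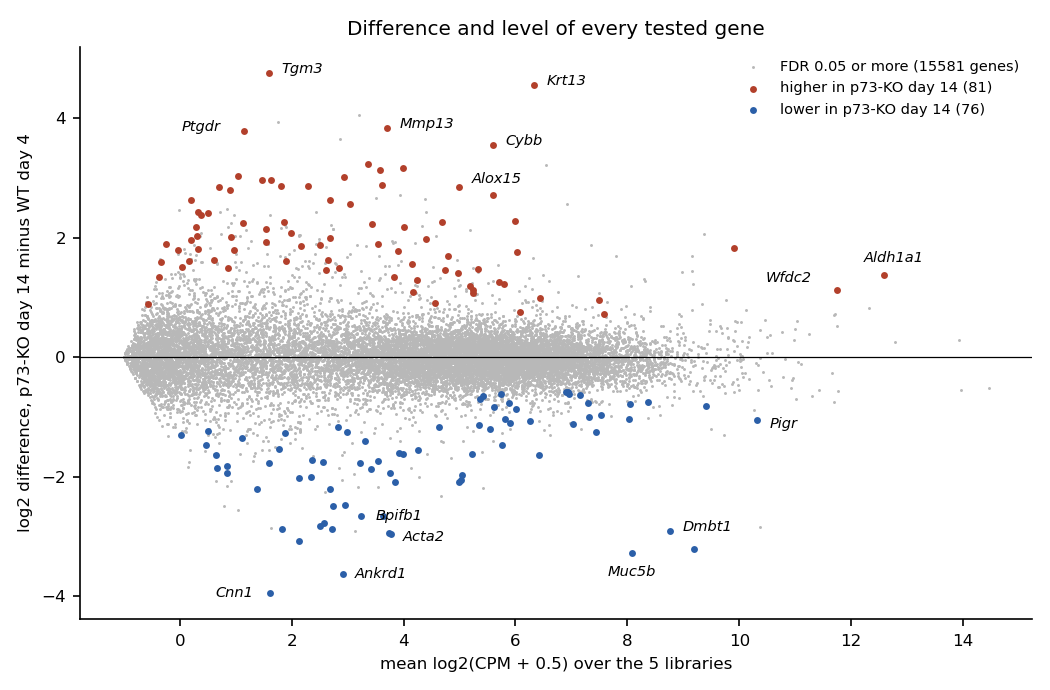
Log2 difference (p73-KO day 14 minus WT day 4) against the mean level over the 5 libraries for all 15738 tested genes, each point a gene. The 81 genes called higher reach 4.76 for Tgm3, and the 76 called lower reach -3.94 for Cnn1.

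Trp73, the targeted gene, encodes p73. It had 30.5 and 16.7 CPM in p73-KO day 14 and 9.83, 22 and 23.3 CPM in WT day 4, and the groups overlapped. The difference was 0.38 ± 0.36 with an FDR of 0.731 (95% interval -0.38 to 1.14). Reads per gene do not show which exons were read, so the level checks neither the deletion nor the labels. Its relatives overlapped between groups as well. Trp63, the basal cell regulator, had 92.0 and 81.9 CPM in p73-KO day 14 and 82.7, 117.1 and 82.8 CPM in WT day 4. Trp53 had 52.7 and 38.7 CPM in p73-KO day 14 and 55.6, 49.6 and 54.4 CPM in WT day 4. Limma, edgeR and DESeq2 called 0 of these 3 genes, against 0.998%, 0.667% and 2.45% of all genes. At an unadjusted p under 0.05, 0 of the 3 passed, against 11.2% of all genes.

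Trp73 itself is among the 13 tested regulators of multiciliated cells, so its reads enter their counts, median and summed level. None of the 13 was called by limma (which called 0.998% of all genes), edgeR (0.667%) or DESeq2 (2.45%). At an unadjusted p under 0.05, 0 of the 13 passed, against 11.2% of all genes. The median difference of the 13 was 0.16, with a range of -0.53 to 0.60, against -0.013 over all genes. The coactivator Gmnc had 59.5 and 45.6 CPM in p73-KO day 14 against 25.2, 35.2 and 44.8 CPM in WT day 4, with the lower knockout library just above the highest wild-type library. Its difference was 0.60 ± 0.33 (interval -0.10 to 1.30, FDR 0.52). Mcidas, the next coactivator, had 57.8 and 45.9 CPM in p73-KO day 14 and 19.6, 46.5 and 45.4 CPM in WT day 4. Ccno, a cyclin needed for centriole amplification, had 134.7 and 91.2 CPM in p73-KO day 14 and 51.0, 111.0 and 124.3 CPM in WT day 4. In both genes WT day 4 replicate 1 was lowest and the other libraries were interspersed. Myb, which acts early in the program, had 134.0 and 108.2 CPM in p73-KO day 14 against 37.5, 135.0 and 153.3 CPM in WT day 4. Foxj1, the factor of motile axonemes, had 333.7 and 207.7 CPM in p73-KO day 14 against 136.2, 330.4 and 327.2 CPM in WT day 4, a difference of 0.10 ± 0.31 (interval -0.56 to 0.77, FDR 0.934). Rfx2 and Rfx3, which bind promoters of ciliary genes, differed by -0.53 (interval -1.10 to 0.04) and 0.11 (interval -0.47 to 0.70). The forkhead factor Foxn4 differed by 0.16 and Cdc20b, a deuterosome component, by 0.05. E2f4, E2f5 and Tfdp1, the DNA-binding partners of multicilin, differed by -0.10, -0.06 and 0.16. The 95% interval lay within 1 on the log2 scale for 7 of the 13 genes, against 68.3% of all genes.

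The wild-type library titled day 3 was the lowest of WT day 4 in the summed level of these 13 regulators. That level was 1007 and 722 CPM in p73-KO day 14 against 473.7, 935.7 and 985.4 CPM in WT day 4. Without that library the median regulator difference was -0.08, and the differences of Foxj1 (-0.32), Myb (-0.26) and Ccno (-0.08) turned negative while that of Gmnc stayed at 0.39. Limma called 0 of the 13 in that fit too.

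Structural ciliary genes gave a similar count of calls. Over all genes limma, edgeR and DESeq2 called 0.998%, 0.667% and 2.45%. At such shares a list of this size holds few calls or none. Limma, edgeR and DESeq2 called 0 of 23 genes of centriole amplification, 0 of 23 axonemal dynein arm genes, 0 of 13 dynein arm assembly factors, 0 of 29 genes of radial spokes, the central pair and nexin links, 0 of 23 tektins, axonemal tubulins and microtubule inner protein genes, 0 of 30 genes of intraflagellar transport and 0 of 12 of the BBSome. At an unadjusted p under 0.05 the counts were 0, 1, 0, 0, 3, 2 and 1 in the same order, against 11.2% of all genes. The median differences were 0.26, -0.06, 0.05, 0.03, 0.03, 0.09 and 0.10.

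Among the centriole genes, the satellite scaffold Pcm1 had 411.4 and 283.1 CPM in p73-KO day 14 and 268.6, 313.5 and 332.3 CPM in WT day 4. The centrin Cetn2 had 116.4 and 198.3 CPM in p73-KO day 14 and 64.6, 128.5 and 120.1 CPM in WT day 4. Plk4, the kinase that starts centriole duplication, had the highest difference of this list, 0.64 ± 0.41 (interval -0.24 to 1.52, FDR 0.601). The knockout libraries lay among or above the wild-type ones for each of these genes.

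Dnahc5, the deposited symbol of the outer arm dynein heavy chain gene Dnah5, had 130.2 and 93.2 CPM in p73-KO day 14 against 56.5, 158.1 and 165.5 CPM in WT day 4, a difference of -0.05 ± 0.41 (interval -0.92 to 0.82). The light chain gene Dynlrb2 had 79.7 and 91.4 CPM in p73-KO day 14 against 29.9, 105.9 and 113.8 CPM in WT day 4. The radial spoke gene Rsph1 had 84.5 and 88.9 CPM in p73-KO day 14 against 27.9, 105.0 and 119.5 CPM in WT day 4. For all 3 genes the knockout libraries lay above the library titled day 3 and below the other wild-type libraries. Lrrc48, the deposited symbol of the nexin link gene Drc3, had 76.4 and 109.5 CPM in p73-KO day 14 and 30.0, 101.1 and 85.8 CPM in WT day 4. Tppp3, a tubulin-binding protein of ciliated cells, had 208.1 and 382.5 CPM in p73-KO day 14 against 61.1, 212.5 and 180.8 CPM in WT day 4, a difference of 1.08 ± 0.41 that missed the threshold (FDR 0.30). Tubb4b, the tubulin of axonemes, had 328.2 and 455.3 CPM in p73-KO day 14 and 282.4, 539.6 and 499.9 CPM in WT day 4.

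The assembly factor Ruvbl2 had 114.8 and 102.2 CPM in p73-KO day 14 and 79.4, 116.7 and 111.4 CPM in WT day 4, and 1110004E09Rik, the deposited symbol of the assembly factor gene Cfap298, differed by 0.36 (interval -0.15 to 0.86). The transport genes Ift52 and Ift46 differed by 0.19 (interval -0.17 to 0.55) and 0.14 (interval -0.31 to 0.60), and the BBSome recruiter Arl6 and the BBSome chaperonin Mkks by 0.51 (interval 0.03 to 0.99) and 0.20 (interval -0.14 to 0.54). The 95% interval lay within 1 on the log2 scale for 14 centriole, 10 dynein arm, 12 assembly, 10 radial spoke and central pair, 4 tektin and inner protein, 26 transport and 12 BBSome genes. For most dynein arm, spoke and inner protein genes the interval thus reached past 1 on the log2 scale.

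Sntn, which encodes a protein of the ciliary tip, was the lowest of all ciliary members. It had 0.75 and 4.06 CPM in p73-KO day 14 and 2.00, 25.6 and 21.8 CPM in WT day 4. The library titled day 3 lay between the knockout libraries, and the other wild-type libraries lay above them. The difference was -2.25 ± 0.76 (FDR 0.234). Without WT day 4 replicate 1 it was -3.34 and passed the threshold (FDR 0.00681). The inner protein gene Ccdc11, known as Cfap53, had 1.91 and 2.46 CPM in p73-KO day 14 against 1.11, 7.71 and 7.77 CPM in WT day 4, and differed by -1.62 (FDR 0.0377) without that library. Tcte1, of the nexin link, had 5.19 and 5.85 CPM in p73-KO day 14 against 2.95, 15.8 and 11.7 CPM in WT day 4, and differed by -1.23 (FDR 0.0481) without it. Without that library 8 of 23 dynein arm genes, 10 of 29 radial spoke and central pair genes and 6 of 23 tektins and inner proteins passed an unadjusted p under 0.05, against 9.37% of all genes. The median difference was then -0.55 for dynein arm genes, -0.50 for radial spoke and central pair genes, -0.43 for tektins and inner proteins and 0.05 for centriole genes, against 0.002 over all genes. These 3 genes, called lower, were the only calls among the ciliary lists in that fit.

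WT day 14 was the latest wild-type day of the series. Dnahc5 had 449.8 ± 77.4 CPM there (SD, n = 3), Rsph1 226 ± 39.3 CPM, Sntn 106 ± 31.9 CPM and Foxj1 485 ± 8.40 CPM. Both p73-KO day 14 libraries lay below all 3 WT day 14 libraries for 22 of 23 dynein arm genes, 12 of 13 assembly factors, 28 of 29 spoke, central pair and nexin link genes, 20 of 23 tektins and inner proteins, 23 of 30 transport genes and 8 of 12 BBSome genes, against 17.6% of all tested genes. The same held for 4 of 13 regulators and 7 of 23 centriole genes. Fewer cells of a type and less RNA per cell cannot be told apart in bulk RNA.

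**Figure D2:**
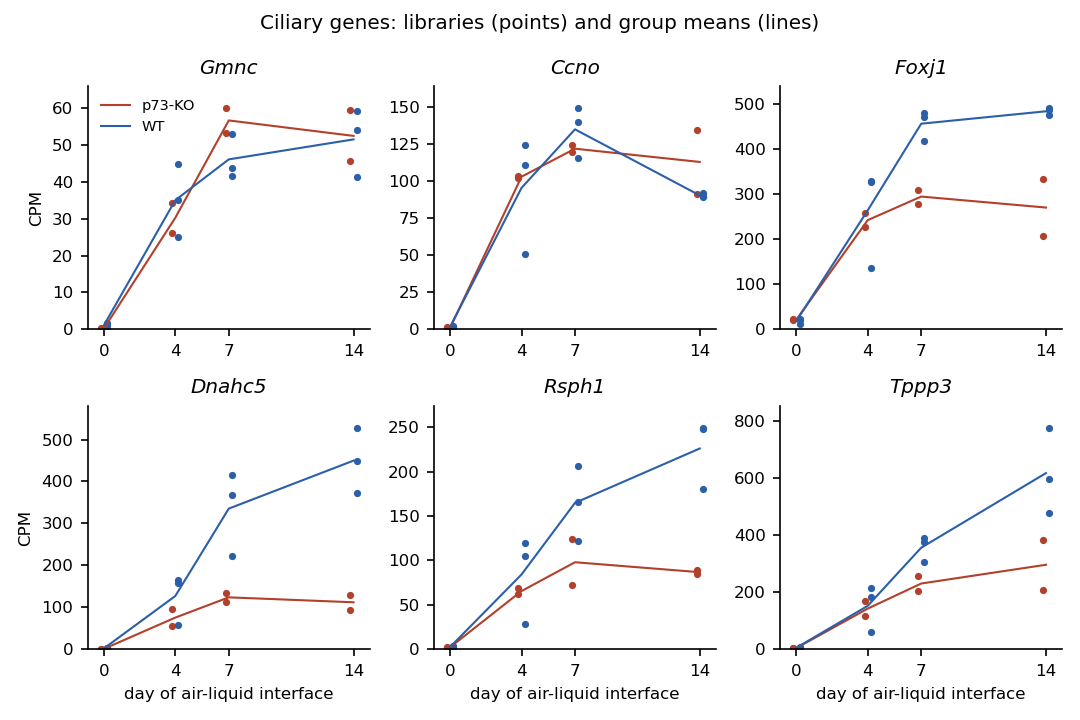
Levels (CPM) of 6 ciliary genes by day of air-liquid interface, points for libraries and lines for group means, p73-KO in red and WT in blue. At day 14 both p73-KO points lie below the WT points for Foxj1, Dnahc5, Rsph1 and Tppp3, and the p73-KO points at day 14 overlap the range of the WT points at day 4 for Ccno, Foxj1, Dnahc5, Rsph1 and Tppp3.

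Contractile genes formed the list with the highest share of calls. The lists were chosen with earlier results of these data known, so such shares describe their members and do not test a list. Of 9 tested smooth muscle and cartilage markers, 5 fell in p73-KO day 14 and 0 rose (55.6% lower, against 0.483% of all genes), and the median difference was -1.85. With edgeR 4 and with DESeq2 5 of them were called lower. Cnn1 (chr9:22099216-22109630, GRCm38), the actin-binding protein calponin, had 0.04 and 0.15 CPM in p73-KO day 14 against 10.4, 6.46 and 9.56 CPM in WT day 4, a difference of -3.94 ± 0.48 (FDR 0.000846). Acta2, the smooth muscle actin, had 3.20 and 3.80 CPM in p73-KO day 14 against 36.4, 24.3 and 32.0 CPM in WT day 4, a difference of -2.96 ± 0.40 (FDR 0.00151). Myl9, a regulatory myosin light chain, had 1.54 and 1.49 CPM in p73-KO day 14 against 15.1, 11.2 and 16.7 CPM in WT day 4, a difference of -2.87 ± 0.54 (FDR 0.013). All 3 genes were lower in both knockout libraries than in every WT day 4 library, as was every gene called lower.

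Tagln, an actin-bundling protein of smooth muscle, had 3.90 and 7.80 CPM in p73-KO day 14 against 30.8, 23.5 and 21.8 CPM in WT day 4, a difference of -2.08 ± 0.44 (FDR 0.0328). Myh11, the smooth muscle myosin heavy chain, had 0.17 and 0.31 CPM in p73-KO day 14 against 3.37, 1.35 and 2.09 CPM in WT day 4, a difference of -1.85 ± 0.35 (FDR 0.0139). The 4 members that were not called were Lmod1 (-0.92, FDR 0.369), Des (-0.44), Col2a1 (-0.26) and Sox9 (-0.15). The summed level of the list was 16.2 and 20.8 CPM in p73-KO day 14 and 105.7, 79.2 and 90.8 CPM in WT day 4. It was 12.4 to 15.5 CPM in WT day 14, so low levels of these genes were also those of late wild-type cultures. The call of Tagln was lost without each library in turn (FDR 0.0592 to 0.141). That of Myl9 was lost without p73-KO day 14 replicate 1 (FDR 0.0658), replicate 2 (FDR 0.184) or WT day 4 replicate 3 (FDR 0.0613), and that of Myh11 without either p73-KO day 14 library (FDR 0.0815 and 0.121). Of the fibroblast markers, limma, edgeR and DESeq2 called 0 of 14, against 0.998%, 0.667% and 2.45% of all genes. At an unadjusted p under 0.05, 0 of the 14 passed, against 11.2% of all genes. The summed level of the 14 was 96.5 and 35.2 CPM in p73-KO day 14 against 72.8, 57.0 and 34.1 CPM in WT day 4. Any part of cells other than epithelium in the contractile genes was not tested.

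The promoters of 3 of these 5 genes, in the RefSeq table of build GRCm38.p6, are printed because the genes fell together and smooth muscle genes are known targets of serum response factor, which binds the CArG box. Each is the 250 bases before the RefSeq start, 5′ to 3′ on the gene's strand. That start lies 44 (Myl9), 217 (Acta2) and 37 (Cnn1) bases inside the gene as GENCODE places it. That many bases at the end of each window thus lie in the GENCODE gene, for Acta2 most of the 250. Capitals mark an exact match to the CArG box (CC, then 6 bases of A or T, then GG), which reads alike on both strands. Tagln and Myh11 are named only.
Myl9 (chr2:156775214-156775463, + strand): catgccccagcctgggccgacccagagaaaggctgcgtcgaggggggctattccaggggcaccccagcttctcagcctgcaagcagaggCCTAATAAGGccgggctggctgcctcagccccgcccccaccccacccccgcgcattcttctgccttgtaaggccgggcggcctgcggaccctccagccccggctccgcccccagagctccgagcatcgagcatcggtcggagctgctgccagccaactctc
Acta2 (chr19:34255374-34255623, - strand): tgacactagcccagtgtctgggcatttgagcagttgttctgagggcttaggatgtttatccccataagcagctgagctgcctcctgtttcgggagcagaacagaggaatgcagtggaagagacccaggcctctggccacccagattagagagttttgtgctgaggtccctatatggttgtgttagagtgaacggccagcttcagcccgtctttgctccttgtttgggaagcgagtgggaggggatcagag
Cnn1 (chr9:22099003-22099252, + strand): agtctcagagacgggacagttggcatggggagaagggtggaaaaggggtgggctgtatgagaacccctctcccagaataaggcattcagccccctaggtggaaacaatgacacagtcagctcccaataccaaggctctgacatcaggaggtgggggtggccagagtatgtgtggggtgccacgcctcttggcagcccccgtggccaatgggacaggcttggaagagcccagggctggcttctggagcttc
The Myl9 window held 1 exact match, its first base 161 bases before the start, and those of Acta2 and Cnn1 held no exact match. Of 32851 windows of this length in the table, 482 (1.47%) held an exact match. With 1 mismatched base the Acta2 window held 2 further matches, the Myl9 window 1 and the Cnn1 window 0, and 18.6% of all windows held a match with at most 1 mismatch.

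Ankrd1 and Flnc, on no list, were also among the largest falls. Ankrd1, a cardiac ankyrin repeat protein induced by mechanical load in muscle, had 0.83 and 1.59 CPM in p73-KO day 14 against 19, 18.7 and 22.7 CPM in WT day 4, a difference of -3.62 ± 0.50 (FDR 0.00188). Flnc, a filamin that cross-links actin, had 1.58 and 0.98 CPM in p73-KO day 14 against 21.6, 10 and 7.77 CPM in WT day 4, a difference of -2.83 ± 0.59 (FDR 0.0282). The knockout libraries lay below the WT day 4 ones in both genes, as in every gene called lower. In WT day 14 the means were 1.65 ± 0.55 CPM for Ankrd1 and 1.34 ± 1.00 CPM for Flnc (SD, n = 3). The call of Flnc was lost without WT day 4 replicate 1 (FDR 0.0979) and without p73-KO day 14 replicate 1 (FDR 0.0685) or replicate 2 (FDR 0.373).

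Calls among secretory and club cell markers were mostly falls. Of 19 tested secretory and club cell markers, 4 fell (21.1%, against 0.483% of all genes) and 1 rose (5.26%, against 0.515%), with a median difference of -0.16. With edgeR 2 were called lower and 0 higher. Muc5b (chr7:141839070-141873084), the gel-forming mucin of resting airways, had 55.7 and 85.9 CPM in p73-KO day 14 against 704.8, 614.1 and 714.4 CPM in WT day 4, a difference of -3.28 ± 0.28 with the smallest adjusted p of all genes (FDR 4.04e-05). Bpifb1, a BPI-fold protein secreted into airway fluid, had 3.49 and 2.00 CPM in p73-KO day 14 against 13.6, 19.6 and 26.9 CPM in WT day 4, a difference of -2.65 ± 0.35 (FDR 0.00135). Both genes were also lower in both p73-KO day 14 libraries than in any of the 12 wild-type libraries. That was so for 36 of the 76 genes called lower and for 1.77% of all tested genes. Chad, a leucine-rich matrix protein on the secretory list, differed by -1.93 ± 0.43 (FDR 0.0427). Pigr, the receptor that carries IgA to the surface, had 885.8 and 770.2 CPM in p73-KO day 14 against 1589, 1814 and 1732 CPM in WT day 4, a difference of -1.05 ± 0.23 (FDR 0.0404).

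Aldh1a1, an aldehyde dehydrogenase of club cells, was the member that rose, with 8701 and 13720 CPM in p73-KO day 14 against 3029, 4877 and 5009 CPM in WT day 4, a difference of 1.38 ± 0.31 (FDR 0.0457). Its mean in WT day 14 was 10407 ± 1323 CPM (SD, n = 3), within the range of the knockout libraries. Scgb1a1, the main club cell secretoglobin, had 427.4 and 126.4 CPM in p73-KO day 14 and 263.6, 77.6 and 106.7 CPM in WT day 4. Scgb3a1 had 181.4 and 910.0 CPM in p73-KO day 14 against 2596, 3228 and 2926 CPM in WT day 4, and its difference of -2.84 ± 0.78 missed the threshold (FDR 0.108) with the knockout libraries far from each other. The calls of Pigr (FDR 0.0704 to 0.483) and, without any library other than WT day 4 replicate 1, Chad (FDR 0.0962 to 0.165) were lost. The call of Aldh1a1 was lost without p73-KO day 14 replicate 2 (FDR 0.726) and without WT day 4 replicate 1, 2 or 3 (FDR 0.158, 0.0590 and 0.0803).

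Among goblet cell markers, 2 of 14 tested members were called higher (14.3%, against 0.515%) and 1 lower (7.14%, against 0.483%), and the median was -0.17. Clca3, the deposited symbol of the goblet cell secreted protein gene Clca1 (chr3:145003817-145032776), had 162.1 and 139.3 CPM in p73-KO day 14 against 10.6, 37.1 and 28.1 CPM in WT day 4, a difference of 2.72 ± 0.37 (FDR 0.00151). Muc16, a membrane mucin, had 12.4 and 19.9 CPM in p73-KO day 14 against 0.98, 3.81 and 1.2 CPM in WT day 4, a difference of 2.87 ± 0.46 (FDR 0.00517). Muc5ac, the gel-forming mucin of goblet cells, had 5.23 and 4.77 CPM in p73-KO day 14 against 13.3, 14.1 and 14.9 CPM in WT day 4, a difference of -1.41 ± 0.26 (FDR 0.0128). Both knockout libraries lay outside the wild-type range of day 4 in all 3 genes, as in every called gene.

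The WT day 14 means were 107.9 ± 1.86 CPM for Clca3, 11.1 ± 3.12 CPM for Muc16 and 5.25 ± 0.13 CPM for Muc5ac (SD, n = 3). Spdef and Foxa3, transcription factors of goblet cells, differed by -0.29 (interval -1.44 to 0.85) and -0.12 (interval -0.79 to 0.55). Gp2 (-2.32 ± 0.74, FDR 0.188), Fcgbp (-1.40 ± 0.43, FDR 0.164) and Creb3l1 (-1.44 ± 0.46, FDR 0.197) had non-overlapping lower values that missed the threshold. Over the list 7 of 14 members had both knockout libraries below all WT day 4 libraries, against 12.3% of all tested genes, and 4 had both above, against 11.9%. The call of Muc16 was lost without p73-KO day 14 replicate 2 (FDR 0.139). That of Muc5ac was lost without WT day 4 replicate 3 (FDR 0.0575) or p73-KO day 14 replicate 1 (FDR 0.0509) or 2 (FDR 0.198).

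**Figure D3:**
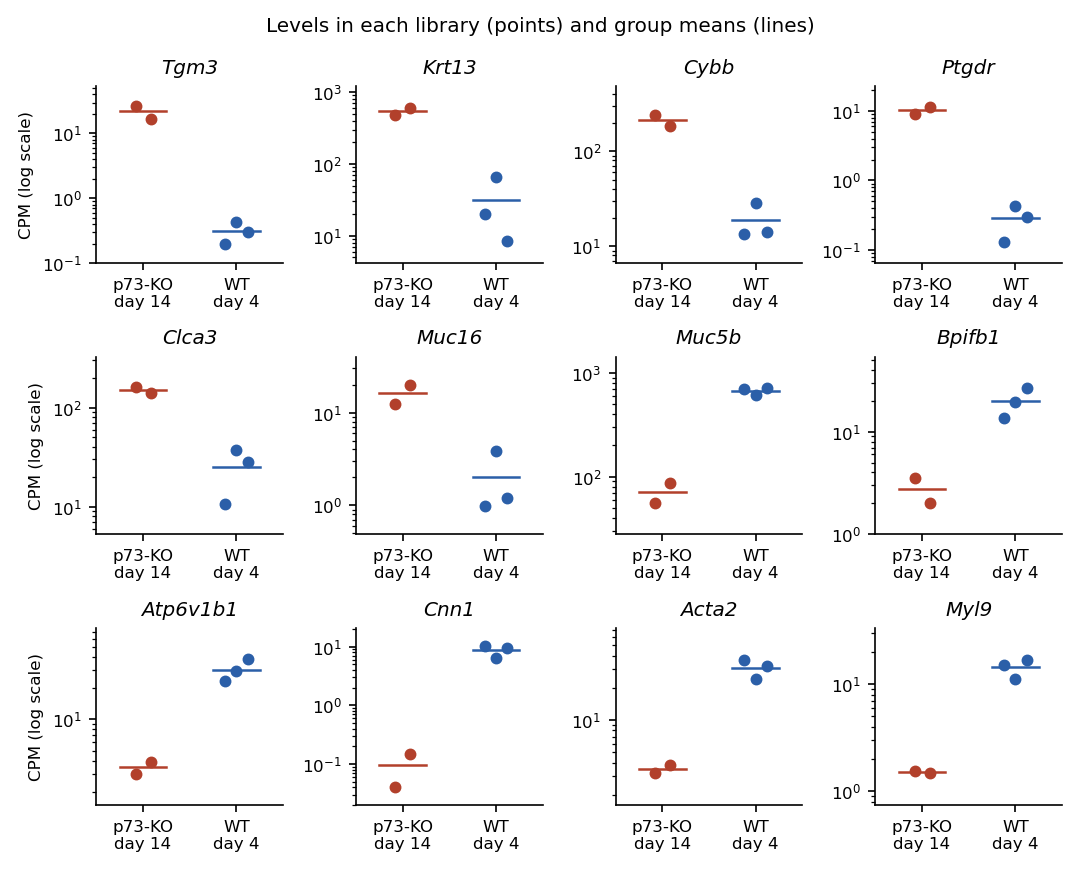
Levels (CPM, log scale) of 12 called genes in the 2 p73-KO day 14 and 3 WT day 4 libraries, points for libraries and lines for group means. The 6 higher genes, Tgm3, Krt13, Cybb, Ptgdr, Clca3 and Muc16, have both p73-KO points above all WT points, and the 6 lower genes, Muc5b, Bpifb1, Atp6v1b1, Cnn1, Acta2 and Myl9, have both below. All 157 called genes share this lack of overlap.

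Squamous genes held the largest rises. Tgm3 (chr2:130012349-130050399), a transglutaminase that cross-links the cornified envelope, had 27.0 and 16.7 CPM in p73-KO day 14 against 0.20, 0.43 and 0.30 CPM in WT day 4, a difference of 4.76 ± 0.60 (FDR 0.00095). Krt13 (chr11:100117327-100121566), a keratin of stratified mucosa, had 473.7 and 603.8 CPM in p73-KO day 14 against 19.9, 64.9 and 8.37 CPM in WT day 4, a difference of 4.55 ± 0.96 (FDR 0.0289). These were 2 of 28 tested squamous and cornified envelope genes (7.14% higher, against 0.515% of all genes), none was lower, and the median was 0.41. With edgeR 1 and with DESeq2 5 were called higher. Both knockout libraries lay above all WT day 4 libraries for 13 of the 28, against 11.9% of all genes.

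Among the 13 were Krt4, the partner keratin of Krt13, with 994.1 and 863.5 CPM in p73-KO day 14 against 524.5, 586.1 and 408.4 CPM in WT day 4 (0.89 ± 0.27, FDR 0.169). Krt6a, a keratin of stressed squamous cells, had 43.9 and 88.4 CPM in p73-KO day 14 against 6.81, 28.4 and 4.18 CPM in WT day 4 (2.66 ± 0.89, FDR 0.225). Terminal envelope genes were not called: the envelope proteins Lor, Ivl and Sprr3 differed by -0.27 (interval -1.05 to 0.51), 0.49 (interval -0.78 to 1.77) and 0.19 (interval -1.26 to 1.63), and Tgm1, the other transglutaminase of the envelope, by -0.70 (interval -1.60 to 0.21). Tgm3 and Krt13 were high in p73-KO cultures of every day. Tgm3 averaged 54.9 ± 60.2, 158.5 ± 85.5 and 92.0 ± 40.0 CPM in p73-KO at days 0, 4 and 7 (SD, n = 2). In WT it averaged 0.19 ± 0.11, 0.31 ± 0.12 and 0.14 ± 0.06 CPM (SD, n = 3). Krt13 averaged 2459 ± 978.0, 2812 ± 821.4 and 1028 ± 416.5 CPM in p73-KO on those days, against 82.1 ± 63.9, 31.1 ± 29.9 and 20.1 ± 21.6 CPM in WT. The call of Krt13 was lost without p73-KO day 14 replicate 1 (FDR 0.0814) or 2 (FDR 0.327), or WT day 4 replicate 1 (FDR 0.0738) or 3 (FDR 0.128).

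Basal cell markers, which bear on the same epithelium, gave no limma call. Limma and edgeR called 0 of 18 and DESeq2 called 1 lower, and the median was -0.20. At an unadjusted p under 0.05, 4 of 18 passed, against 11.2% of all genes. The basal keratins Krt5 and Krt15 had 611.9 and 481.4 CPM and 3898 and 4645 CPM in p73-KO day 14, against 489.3, 664.3 and 483.1 CPM and 2236, 3481 and 3307 CPM in WT day 4. The difference of Krt5 was 0.01 ± 0.32 (interval -0.66 to 0.68) and that of Krt15 0.53 ± 0.38 (interval -0.27 to 1.32). Krt14, of the same basal layer, had 229.6 and 258.7 CPM in p73-KO day 14 against 97.6, 154.5 and 55.9 CPM in WT day 4 (1.36 ± 0.48, FDR 0.259).

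Oxidase genes had 1 call of 8 (12.5% higher, against 0.515%; 0 lower; median 0.40). Cybb (chrX:9435252-9487771), the catalytic subunit of the phagocyte NADPH oxidase, had 242.7 and 185.0 CPM in p73-KO day 14 against 13.3, 28.7 and 14.0 CPM in WT day 4, a difference of 3.56 ± 0.45 (FDR 0.00095). Its membrane partner Cyba had 66.0 and 189.6 CPM in p73-KO day 14 against 92.6, 102.9 and 80.1 CPM in WT day 4 and differed by 0.29 (interval -0.69 to 1.27). The cytosolic partner Ncf1 was at 0.26 CPM or less in all 5 libraries. The leukocyte markers Ptprc, Tyrobp and Emr1 were at 0.08 CPM or less in each of them, while the leukocyte list summed to 1186 and 2998 CPM in p73-KO day 14 against 891.2, 1464 and 1221 CPM in WT day 4. Most of that sum was Lyz2, a lysozyme also made by airway epithelium, with 864.5 and 2740 CPM in p73-KO day 14 against 642.1, 1158 and 938.2 CPM in WT day 4. Cd14, the next of that list by level, differed by 0.09 (interval -0.85 to 1.03). Of the 9 tested leukocyte markers limma and edgeR called 0 and DESeq2 1 lower, and their median was 0.17. At an unadjusted p under 0.05, 2 of the 9 passed, against 11.2% of all genes.

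Ion transport genes fell in 2 of 18 tested members (11.1%, against 0.483%), 0 rose, and the median was 0.22. Both encode subunits of the proton pump V-ATPase. Atp6v1b1 had 2.99 and 3.90 CPM in p73-KO day 14 against 23.2, 29.3 and 37.9 CPM in WT day 4, a difference of -2.94 ± 0.53 (FDR 0.0101). Atp6v1c2 had 16.9 and 13 CPM in p73-KO day 14 against 35.4, 30.4 and 35.9 CPM in WT day 4, a difference of -1.16 ± 0.21 (FDR 0.00984). Foxi1, the transcription factor of ionocytes, had 1.74 and 2.67 CPM in p73-KO day 14 and 1.05, 2.60 and 1.79 CPM in WT day 4 (0.26, interval -0.52 to 1.05). Cftr, the chloride channel of ionocytes and secretory cells, had 15.6 and 18.2 CPM in p73-KO day 14 against 3.67, 8.24 and 6.57 CPM in WT day 4, a difference of 1.44 ± 0.48 that missed the threshold (FDR 0.221). The call of Atp6v1b1 was lost without WT day 4 replicate 3 (FDR 0.0517) or p73-KO day 14 replicate 1 (FDR 0.0672) or 2 (FDR 0.0964), and that of Atp6v1c2 without p73-KO day 14 replicate 2 (FDR 0.225).

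Of 10 tested tuft and neuroendocrine markers 1 rose (10%, against 0.515%), 0 fell, and the median was 0.36. EdgeR called 0 of the 10. Chga, a protein of neuroendocrine granules, had 2.74 and 4.83 CPM in p73-KO day 14 against 0.95, 0.58 and 0.60 CPM in WT day 4, a difference of 1.79 ± 0.38 (FDR 0.0289). The tuft cell kinase Dclk1 had 83.2 and 34.6 CPM in p73-KO day 14 against 122.1, 73.3 and 106.4 CPM in WT day 4 (-0.87 ± 0.50, FDR 0.541). The call of Chga was lost without p73-KO day 14 replicate 2 (FDR 0.55) or WT day 4 replicate 2 (FDR 0.0728) or 3 (FDR 0.098).

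Matrix genes had 1 rise and 1 fall among 26 tested (3.85% each way, against 0.515% and 0.483%), with a median of -0.42. Mmp13, a collagenase, had 53.4 and 76.9 CPM in p73-KO day 14 against 4.32, 9.11 and 1.49 CPM in WT day 4, a difference of 3.84 ± 0.74 (FDR 0.0153). Plau, the urokinase protease, had 7.68 and 21.4 CPM in p73-KO day 14 against 54.0, 61.3 and 54.4 CPM in WT day 4, a difference of -2.09 ± 0.37 (FDR 0.0101). In WT day 14 Mmp13 averaged 24.3 ± 29.9 CPM and Plau 11.3 ± 1.54 CPM (SD, n = 3). The call of Mmp13 was lost without p73-KO day 14 replicate 1 (FDR 0.0529) or 2 (FDR 0.256) or WT day 4 replicate 3 (FDR 0.0786), and that of Plau without p73-KO day 14 replicate 1 (FDR 0.0939).

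Single calls lay in 3 further lists. Among 26 Wnt pathway genes (median -0.05; 3.85% lower, against 0.483% of all genes) Wnt7a, a ligand, had 2.37 and 1.80 CPM in p73-KO day 14 against 18.6, 8.73 and 8.96 CPM in WT day 4, a difference of -2.21 ± 0.51 (FDR 0.0464). EdgeR called 0 Wnt pathway genes, with an FDR of 0.0735 for Wnt7a. Wnt4, another ligand, and Lgr4, a receptor of R-spondins, differed by -0.27 (interval -0.64 to 0.11) and 0.07 (interval -0.24 to 0.38). Among 21 hypoxia and glycolysis genes (median -0.16; 4.76% lower, against 0.483%) Slc16a3, the lactate exporter, had 1.70 and 2.36 CPM in p73-KO day 14 against 4.59, 9.98 and 10.2 CPM in WT day 4, a difference of -1.72 ± 0.31 (FDR 0.00984). The glycolytic genes Aldoa and Ldha differed by -0.47 ± 0.22 and -0.16 ± 0.18 (FDR 0.438 and 0.793). Among 23 detoxification genes the median was 0.39, and 1 was called higher (4.35%, against 0.515%). The carboxylesterase Ces1d and the cytochrome Cyp2a5 differed by 0.82 (interval -0.16 to 1.81) and 0.39 (interval -0.66 to 1.45). With DESeq2, 4 detoxification genes were called higher. The call of Wnt7a was lost without each library in turn (FDR 0.0575 to 0.512). Slc16a3 lost its call without WT day 4 replicate 3 (FDR 0.0517) or p73-KO day 14 replicate 1 (FDR 0.0747) or 2 (FDR 0.066).

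The remaining genes with the largest rises were of varied function. Ptgdr, the receptor of prostaglandin D2, had 9.17 and 11.4 CPM in p73-KO day 14 against 0.13, 0.43 and 0.30 CPM in WT day 4, a difference of 3.79 ± 0.51 (FDR 0.00148). Pla2g10, a secreted phospholipase that frees fatty acids from membranes, had 6.06 and 7.49 CPM in p73-KO day 14 against 0.07, 1.01 and 0.30 CPM in WT day 4, a difference of 3.04 ± 0.34 (FDR 0.000432). Lgals4, a galectin of gut epithelium, had 27.2 and 56.4 CPM in p73-KO day 14 against 1.80, 5.74 and 4.78 CPM in WT day 4, a difference of 3.23 ± 0.56 (FDR 0.00856). Abca13, a lipid transporter of the ABC family, had 79.6 and 43.5 CPM in p73-KO day 14 against 5.44, 6.70 and 6.27 CPM in WT day 4, a difference of 3.17 ± 0.59 (FDR 0.012). In all 4 genes both knockout libraries lay above each of the 12 wild-type libraries. The same held for 50 of the 81 genes called higher and for 1.72% of all tested genes.

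Srgn, the core protein of granule proteoglycans, differed by 3.13 ± 0.69 (FDR 0.0382), and its knockout libraries were far apart, at 26.0 and 71.7 CPM against 2.55, 10.3 and 3.29 CPM in WT day 4. Aldh1l2, a mitochondrial enzyme of folate metabolism, had 17.5 and 39.3 CPM in p73-KO day 14 against 2.06, 4.87 and 2.09 CPM in WT day 4 (3.02 ± 0.62, FDR 0.0264). Kcnj1, a potassium channel known from the kidney, had 8.05 and 12.9 CPM in p73-KO day 14 against 0.29, 1.11 and 1.49 CPM in WT day 4 (2.97 ± 0.52, FDR 0.00946). Stmn2, a microtubule-destabilising protein known from neurons, had 6.02 and 13.4 CPM in p73-KO day 14 against 0.92, 0.67 and 0.60 CPM in WT day 4 (2.96 ± 0.61, FDR 0.0275). Without p73-KO day 14 replicate 2 the calls of Lgals4 (FDR 0.217), Abca13 (FDR 0.066), Srgn (FDR 0.686), Aldh1l2 (FDR 0.505), Kcnj1 (FDR 0.20) and Stmn2 (FDR 0.506) were lost. The call of Abca13 was also lost without p73-KO day 14 replicate 1 (FDR 0.0868). Without WT day 4 replicate 3 those of Srgn (FDR 0.136), Aldh1l2 (FDR 0.0993) and Stmn2 (FDR 0.0929) were lost, without replicate 1 those of Srgn (FDR 0.123) and Aldh1l2 (FDR 0.0776), and without replicate 2 that of Stmn2 (FDR 0.0601).

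Of the remaining genes with the largest falls, Dmbt1, a secreted scavenger protein of mucosal defence, had 94.7 and 175.2 CPM in p73-KO day 14 against 531.2, 1120 and 1539 CPM in WT day 4, a difference of -2.91 ± 0.63 (FDR 0.0349). Klk11, a secreted serine protease, had 2.16 and 5.90 CPM in p73-KO day 14 against 31.7, 24.1 and 21.8 CPM in WT day 4, a difference of -2.66 ± 0.59 (FDR 0.039). Gdpd2, a membrane phosphodiesterase, had 1.62 and 1.18 CPM in p73-KO day 14 against 17.2, 9.02 and 12 CPM in WT day 4 (-2.76 ± 0.50, FDR 0.0109). Both knockout libraries lay below each of the 12 wild-type libraries for these 3 genes. The same held for 36 of the 76 genes called lower and for 1.77% of all tested genes. Prnd, which encodes the prion-like protein doppel and overlaps the gene Prn on the same strand, had 0.21 and 1.59 CPM in p73-KO day 14 against 12.5, 6.07 and 12 CPM in WT day 4 (-3.07 ± 0.55, FDR 0.0107). Unc79, a subunit of the sodium leak channel complex, had 0.46 and 0.72 CPM in p73-KO day 14 against 4.75, 8.05 and 10.5 CPM in WT day 4 (-2.87 ± 0.48, FDR 0.00739) and 14.0 ± 5 CPM in WT day 14 (SD, n = 3). Klk11 lost its call without each library in turn (FDR 0.0720 to 0.156), and Dmbt1 without any library other than WT day 4 replicate 1 (FDR 0.0804 to 0.153). Without p73-KO day 14 replicate 1 Prnd (FDR 0.0943) and Unc79 (FDR 0.0523) lost theirs, without replicate 2 Gdpd2 (FDR 0.19) and Unc79 (FDR 0.066), and without WT day 4 replicate 3 Prnd (FDR 0.0516).

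No member of 9 further lists was called by limma. Epithelial cytokine and chemokine genes had the highest median of all lists, 0.91. At an unadjusted p under 0.05, 7 of 23 passed, all higher, against 11.2% of all genes in either direction. For 12 of 23 both knockout libraries lay above all WT day 4 libraries, against 11.9% of all genes. Ptgs2, the inducible prostaglandin synthase, had 150 and 169.2 CPM in p73-KO day 14 against 59.5, 66.6 and 56.5 CPM in WT day 4 (1.39 ± 0.48, FDR 0.252). The neutrophil chemokine Cxcl5 had 96.8 and 174.8 CPM in p73-KO day 14 against 46.1, 74.1 and 40.3 CPM in WT day 4 (1.32 ± 0.97, FDR 0.647). The summed level of the list was 311.8 and 536.0 CPM in p73-KO day 14 against 154.0, 224.4 and 141.6 CPM in WT day 4, and edgeR and DESeq2 called 0 members.

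For the other 8 lists limma, edgeR and DESeq2 called 0, except that DESeq2 called 1 epithelial identity gene, Cdh1, lower (DESeq2 FDR 0.0344). Unadjusted p-values under 0.05 numbered 2 of 27 interferon response, 1 of 17 Notch, 2 of 21 p53 target, 1 of 33 cell cycle, 0 of 23 immediate early and heat shock, 5 of 16 retinoic acid, 0 of 5 endothelial and glial and 2 of 12 epithelial identity genes. Over all genes that share was 11.2%. The medians of these lists were 0.05, -0.09, 0.11, 0.24, -0.23, 0.09, 0.14 and -0.24 in that order. Among members with the highest levels in these lists, Ccnd1, a cyclin that starts the cell cycle, had 220.3 and 201.1 CPM in p73-KO day 14 against 445.2, 270.8 and 295.5 CPM in WT day 4. Its difference was -0.64 (interval -1.15 to -0.14, FDR 0.283), and both knockout libraries lay below all 12 wild-type libraries. The retinal reductase Dhrs3 differed by -0.81 (interval -1.42 to -0.20, FDR 0.259) and the receptor Notch2 by -0.43 (interval -0.86 to -0.01, FDR 0.435), with the knockout libraries below all WT day 4 libraries in both genes. For the next 9 genes the interval held 0. The class I antigens H2-D1 and H2-K1 differed by -0.28 (interval -0.69 to 0.13) and -0.09 (interval -0.45 to 0.27). Hes1, a target of Notch, differed by -0.29 (interval -1.14 to 0.55), and the retinol dehydrogenase Rdh10 by 0.69 (interval -0.02 to 1.4). The p53 targets Ccng1 and Cdkn1a differed by 0.43 (interval -0.10 to 0.95) and 0.10 (interval -0.31 to 0.52), and the mitotic kinase Cdk1 by 0.48 (interval -0.53 to 1.5). The chaperone Hsp90aa1 and the AP-1 factor Fosl2 differed by 0.31 (interval -0.12 to 0.75) and -0.23 (interval -0.72 to 0.26). Cdh1, the epithelial cadherin, had 867.3 and 729.4 CPM in p73-KO day 14 against 1058, 1054 and 1068 CPM in WT day 4 (-0.41 ± 0.13, interval -0.70 to -0.13, limma FDR 0.20). For Cdh1, as for Ccnd1, the knockout libraries lay below all 12 wild-type libraries, whose lowest had 875.2 CPM. That was so for 1.77% of all tested genes. Of fibroblast markers with the highest levels, S100a4 differed by 1.04 (interval -0.23 to 2.32) and Dcn by 0.07 (interval -1.47 to 1.61), and the median of that list was -0.26.

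**Figure D4:**
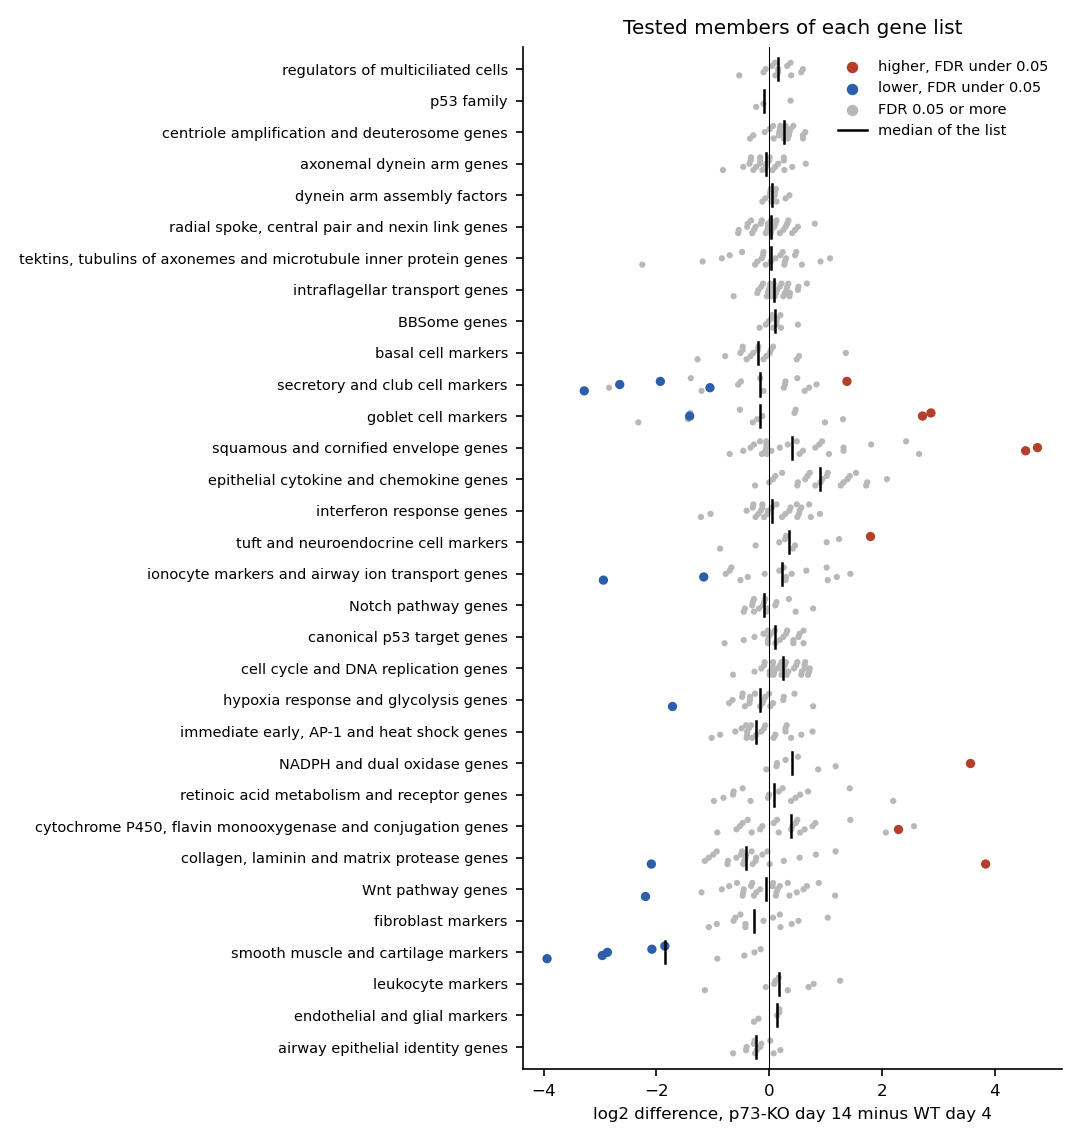
Log2 differences (p73-KO day 14 minus WT day 4) of the tested members of 32 gene lists, each point a gene, red and blue for genes called higher and lower, black bars for list medians. Smooth muscle and cartilage markers have a median of -1.85 and 5 called lower, and the ciliary lists in the top rows lie around 0 with no call.

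Levels that no wild-type library showed on any day were counted for all tested genes. Both p73-KO day 14 libraries lay above all 12 WT libraries for 270 genes (1.72%) and below all 12 for 279 (1.77%). Of the 157 called genes, 50 of the 81 higher and 36 of the 76 lower were among them. Against WT day 14 alone, 57 of the 81 higher genes had both knockout libraries above all 3 libraries, 4 below and 20 overlapping, and 42 of the 76 lower genes had both below, 4 above and 30 overlapping. The differences led by Tgm3, Krt13, Ptgdr, Cybb and Lgals4 on the high side and Cnn1, Muc5b, Atp6v1b1, Dmbt1 and Gdpd2 on the low side lay outside the range of the wild-type libraries of days 0 to 14. For Cnn1 that rests on few reads, 1 and 3 in p73-KO day 14 against 6, 8 and 5 in WT day 14.

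The courses by day differed between these genes. Means are given ± SD, with n = 2 for p73-KO and n = 3 for WT. Cybb averaged 21.3 ± 8.75, 129.1 ± 96.7, 153.4 ± 56.5 and 213.8 ± 40.8 CPM in p73-KO at days 0, 4, 7 and 14, against 16.5 ± 1.77, 18.7 ± 8.69, 14.8 ± 4.92 and 33.7 ± 10.4 CPM in WT. Muc5b averaged 79.7 ± 7.53, 249.0 ± 141.8, 123.4 ± 5.37 and 70.8 ± 21.4 CPM in p73-KO on those days, against 661.8 ± 44.4, 677.8 ± 55.4, 448.6 ± 46.4 and 175.2 ± 49.8 CPM in WT. Cnn1 averaged 3.46 ± 1.15, 0.50 ± 0.28, 0.61 ± 0.25 and 0.10 ± 0.08 CPM in p73-KO, against 5.96 ± 3.92, 8.82 ± 2.09, 0.59 ± 0.51 and 0.29 ± 0.06 CPM in WT. Acta2 averaged 39.9 ± 1.60, 11.8 ± 6.03, 13.9 ± 0.88 and 3.5 ± 0.43 CPM in p73-KO, against 26.9 ± 12.4, 30.9 ± 6.09, 2.96 ± 1.66 and 2.24 ± 0.15 CPM in WT. The Cnn1 and Acta2 levels of WT day 4 were thus high within the wild-type course.

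**Figure D5:**
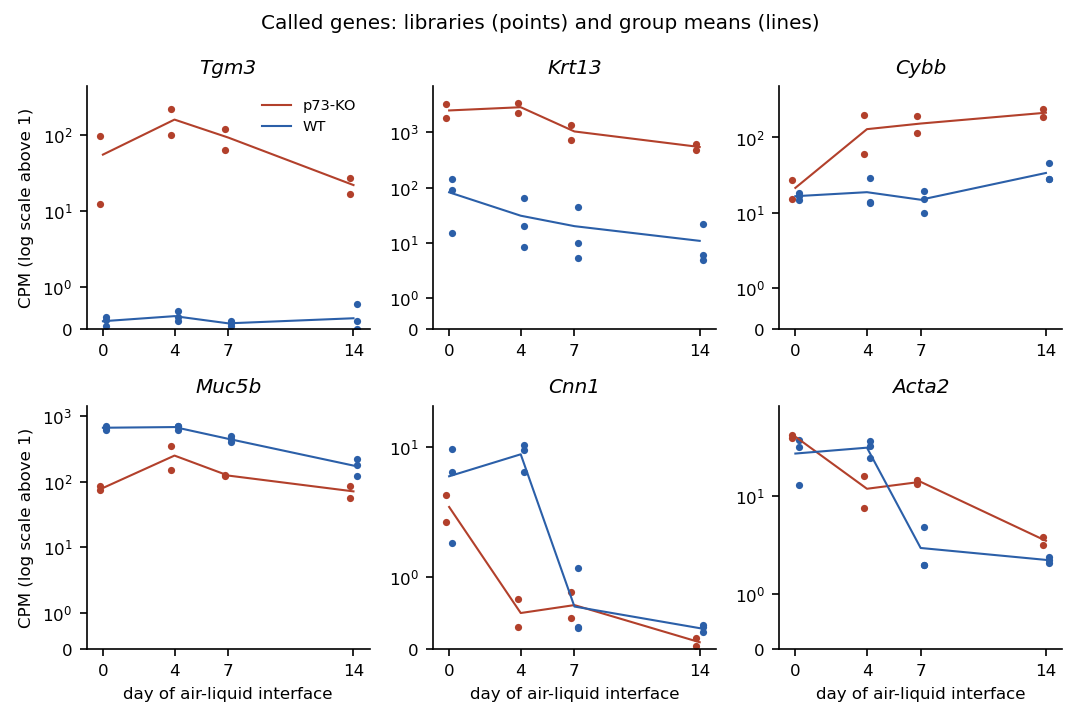
Levels (CPM, log scale above 1) of 6 called genes by day of air-liquid interface, points for libraries and lines for group means, p73-KO in red and WT in blue. Tgm3 and Krt13 lie higher in p73-KO on every day, Muc5b lies lower on every day, and Cnn1 and Acta2 end near the WT day 14 level of 0.29 and 2.24 CPM.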

How the data were processed

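RNA-seq of mouse tracheal epithelial cultures was analysed from 1 deposited table of 20 libraries and 38355 gene IDs. The deposited values are read counts per the file headers, but they hold decimals: each library's values are whole multiples of 1 step, as counts scaled by the authors within each day would be (unit signal). The submitters' processing notes name STAR 2.3.0e, DESeq2 1.4.5 and build mm10. The role of each tool, and whether counting used strand, is not given, so overlapping genes are uncertain. All values came out as whole reads to within 0.1 reads once each library's step was found, and those reads gave the depths. Levels were scaled by TMM across all libraries and written as CPM. Genes with 0.5 CPM in at least 2 libraries were tested (15738) with limma 3.58.1 in R 4.3.3 on log2(CPM + 0.5), with trend and robust settings, in 1 fit of 20 libraries in 8 groups, with Benjamini-Hochberg adjustment over all tested genes. EdgeR 4.0.16 and DESeq2 1.42.0 on the recovered reads were alternatives, as were other scalings, filters, pseudocounts, a replicate block and leave-outs. The scripts were tested on simulated data.

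Of the tested IDs, 15579 were found in the GENCODE annotation of GRCm38, which gave coordinates. No label says that libraries of a group came from separate animals, so p-values measure only the spread between these samples, which may be technical. The members and lists were chosen with earlier results of these data known. Named genes were Trp73, the regulators, the 12 called genes with the largest difference in each direction that averaged at least 2 CPM in the higher group without overlap of libraries, the 5 in each direction outside every wild-type library, up to 4 called members of each list, and the 2 members with the highest levels in lists with fewer calls. Predicted, clone-named and sex-linked genes were left out of the ranked parts. The genes Pigr, Myh11, Plk4, Sntn, Ccdc11, Tcte1, Sox9, Col2a1, Des, Lmod1, Spdef, Foxa3, Gp2, Fcgbp, Creb3l1, Scgb1a1, Scgb3a1, Tgm1, Lor, Ivl, Sprr3, Krt4, Krt6a, Krt14, Foxi1 and Cftr fall outside that rule and were chosen after their values were seen. Values of some genes that this rule names are not reported here.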

Additional observations from a re-analysis of the deposited data

How the results depend on the processing

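The 157 calls (81 higher, 76 lower) kept their direction wherever they were called, and 0 of the 37 called genes named above changed sign under any of 16 settings. Of the 62 named genes that were not called, 32 changed sign under at least 1 setting, 15 of them without WT day 4 replicate 1. EdgeR called 105 genes (58 higher, 47 lower), 104 of them among the 157, and DESeq2 called 385 (197 higher, 188 lower), with 155 of the 157. Of the 37 called genes named above, edgeR called 24 and did not call 13. With the 5 libraries fitted alone 26 were called (9 higher, 17 lower), with fewer samples to estimate the spread. Without the filter on low levels 129 were called (80 higher, 49 lower). Other scalings, pseudocounts, a 2 CPM filter and a fit without trend gave 142 to 169. Leaving out 1 library gave 33 (without p73-KO day 14 replicate 2) to 165 (without p73-KO day 14 replicate 1) calls, 15 to 105 higher and 18 to 71 lower. Of the 157, 21 kept their call in all 5 leave-outs. Genes outside all 12 WT libraries numbered 549, and 492 to 626 under the alternatives.

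With the replicate number as a block, 458 genes were called (221 higher, 237 lower), all 157 among them. Same-numbered libraries had correlated departures from their group means (0.213 and 0.288). With 2 p73-KO libraries the departures of replicate 1 mirror those of replicate 2, so the crossed pairs had -0.213 and -0.288. The 2 positive values are thus not independent. The groups share only 2 numbers and no label says what a number marks, so the libraries are taken to share only a number. With 2 knockout libraries and 3.27 M reads in WT day 4 replicate 3, small differences were not detectable for many genes with low levels.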

Other observations

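Further called genes, chosen after their values were seen, were as follows. Alox15, a lipoxygenase of arachidonic and linoleic acid, had 133.4 and 81.6 CPM in p73-KO day 14 against 7.11, 27.6 and 13.7 CPM in WT day 4, a difference of 2.85 (limma, FDR 0.00457). Hpgds, a prostaglandin D2 synthase, had 36.1 and 31.2 CPM in p73-KO day 14 against 12.9, 12.5 and 8.37 CPM in WT day 4, a difference of 1.56 (FDR 0.0211) whose call was lost without p73-KO day 14 replicate 1 (FDR 0.0916), p73-KO day 14 replicate 2 (FDR 0.17) or WT day 4 replicate 3 (FDR 0.098). Both knockout libraries lay above all WT day 4 libraries in these genes, as in every gene called higher. Muc13, a membrane mucin, had 23.0 and 23.9 CPM in p73-KO day 14 against 2.33, 6.27 and 2.99 CPM in WT day 4 (2.56, FDR 0.00435, and 0.066 without p73-KO day 14 replicate 2). Wfdc2, a secreted protein of airway epithelium, had 4632 and 6442 CPM in p73-KO day 14 against 2428, 2576 and 2514 CPM in WT day 4 (1.12, FDR 0.0048, and 0.145 without p73-KO day 14 replicate 2).

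Lower in the knockout was Sftpb, a surfactant protein, with 2.07 and 1.69 CPM in p73-KO day 14 against 20.5, 8.63 and 11.7 CPM in WT day 4, a difference of -2.48 (FDR 0.00191). Edn1, the peptide endothelin 1, had 3.78 and 5.13 CPM in p73-KO day 14 against 17.3, 16.7 and 18.5 CPM in WT day 4, a difference of -1.87 (FDR 0.00284). Fblim1, an adaptor of cell-matrix junctions that binds filamin, had 6.10 and 8.52 CPM in p73-KO day 14 against 27.0, 22.4 and 20 CPM in WT day 4, a difference of -1.60 (FDR 0.00111). These 3 genes kept their call without each of the 5 libraries in turn.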
